A study of Mus musculus with 2931 samples.

Results

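The nuclear oxidative phosphorylation genes are the genes of the cell nucleus for subunits of the mitochondrial respiratory chain and of the ATP synthase. They were taken from the count table by symbol: symbols that start with Nduf and then a, b, c, s or v, the symbols Sdha, Sdhb, Sdhc and Sdhd, and symbols that start with Uqcr, with Cox followed by a digit from 4 to 8, or with Atp5. The rule used no measured value. Of 18072 gene symbols it found 92 protein-coding genes, 12 processed pseudogenes and 1 gene, Ndufb1-ps, that the GENCODE M21 annotation lists as a bidirectional promoter lncRNA. The coding genes comprise 38 subunit genes of complex I, 8 complex I assembly factors (symbols that start with Ndufaf, which the rule also takes), 4 genes of complex II, 8 of complex III, 17 of complex IV and 17 of complex V. Ndufa4 and its relative Ndufa4l2 were counted with complex I, by symbol, in all values by complex below, although Ndufa4 was later placed in complex IV. All members found by the rule had reads in at least 1 cell.

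Complex I and complex II pass electrons from NADH and from succinate to ubiquinone, complex III passes them on to cytochrome c, and complex IV, cytochrome c oxidase, reduces oxygen with them. The proton gradient built on the way drives complex V, the ATP synthase. Most subunits are encoded in the nucleus and a few core ones in mitochondrial DNA, and endothelial cells are known for a low dependence on this pathway, making much of their ATP by glycolysis. Several complex IV subunits have tissue or oxygen dependent isoforms, such as Cox4i2, described as a lung and hypoxia isoform of the ubiquitous Cox4i1, and Cox6b2, described as the testis isoform of Cox6b1.

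The study sequenced single endothelial cells (EC) sorted from mouse distal lung, 2931 cells in all, with a plate-based method that makes libraries with Tn5 transposase and carries no molecular identifiers. The cells came from 10 mouse names in 5 groups, each with 1 female and 1 male: normal air before birth (embryonic stage E18.5), at postnatal day 1 (P1), day 7 (P7) and day 21 (P21), and hyperoxia at P7. Strain, genotype, the oxygen level and the length of the hyperoxia exposure are not given in the sources used here, nor if each name is a single animal or several pooled, so the spread between the mice of a group may hold less than the spread between animals. The submitters' labels give each cell 1 of 10 subtypes, and reads were summed per mouse over embryonic EC (nonproliferative embryonic EC, used at E18.5), Car4- capillaries (Early and Late labels together), Car4+ capillaries, proliferative EC and venous EC, with at least 8 cells per mouse. "Capillary line" below means embryonic EC at E18.5 and Car4- capillaries later.

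The 2931 cells held 2062278606 counted reads, between 42095 and 2967985 per cell with a median of 621406, and the sums per mouse and class held between 5372406 reads (venous EC of the P7 male, 23 cells) and 195034861 reads (Car4- capillaries of the P21 female). All 5 endothelial markers, Pecam1, Cdh5, Kdr, Tek and Cldn5, had reads in each of the 34 sums used. The table lists no mitochondrially encoded symbol and no cytosolic ribosomal protein symbol, so all CPM values (reads scaled to a common library size within each sum) are relative to the remaining nuclear genes. The P1 male stood apart: 17.1% of the reads of its Car4- capillaries came from other genes with transcripts of at most 1000 bp, against 10.9% in the P1 female, 8.79% in the P7 female and 10% in the P7 male. The cells of the CD31 sort gate of the E18.5, P1 and P21 females shared a sequencing run, as did those of the E18.5, P7, P21 and hyperoxia males, while CD31-gate cells of the remaining 3 mice (male at P1, female at P7 in either condition) shared a run with CD31-gate cells of no other mouse. Cells of the other gates came partly from other runs.

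The members are short genes: the median transcript length of the coding ones was 751.5 bp, against 2547 bp over 18017 symbols with a length. Of all members, 14 share at least 20% of their 50-base stretches with another gene, 7 of them coding (Ndufs3, Cox7c, Ndufb9, Ndufb4, Ndufs5, Atp5h and Cox5b), and their counts are uncertain because the rule used for reads with several matches is not given in the sources used here. Positions below are from the mouse build GRCm38. The submitters' processing notes name GRCh38, a human assembly, so the build behind the counts is not settled. The sequences of 74 members were in the RefSeq promoter table (GRCm38.p6). Among the 250 bases before the start, an NRF1 motif (GCATGCGC on either strand; NRF1 is a known activator of respiratory chain genes) was present in 9 of 74 members (12.2%) and in 2.56% of 27025 genes of the table. An ETS motif (CCGGAAG on either strand, of the kind that GABPA binds) was present in 14 members (18.9%) and in 7.83% of genes. The YY1 motif, on either strand, was present in 1 member, Atp5j (1.35%), and in 0.359% of genes. The short hypoxia factor core ACGTG was in 18.9% of members and 18.49% of genes, its other core GCGTG in 43.2% and 30.9%, and the CCAAT box in 44.6% and 37.5%, each on either strand. A match is a description of letters and not a bound site. Shown here are the 4 members on which the results below turn most and which the promoter table holds. They are given 5′ to 3′ on the gene's strand, with NRF1, ETS and YY1 matches in capitals: Ndufa6 (chr15:82354292-82354541, minus strand) and Ndufa11 (chr17:56717512-56717761, plus strand), with lower values at P7 than at P1 in Car4- capillaries; Sdhd (chr9:50603850-50604099, minus strand) and Cox6b2 (chr7:4753095-4753344, minus strand), with higher values under hyperoxia in both mice in Car4- capillaries. None of these differences passed the main test.
Ndufa6: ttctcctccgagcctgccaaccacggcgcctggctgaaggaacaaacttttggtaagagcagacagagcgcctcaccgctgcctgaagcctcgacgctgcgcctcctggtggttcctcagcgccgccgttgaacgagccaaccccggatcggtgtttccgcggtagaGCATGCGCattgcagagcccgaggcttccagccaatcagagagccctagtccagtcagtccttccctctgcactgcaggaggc
Ndufa11: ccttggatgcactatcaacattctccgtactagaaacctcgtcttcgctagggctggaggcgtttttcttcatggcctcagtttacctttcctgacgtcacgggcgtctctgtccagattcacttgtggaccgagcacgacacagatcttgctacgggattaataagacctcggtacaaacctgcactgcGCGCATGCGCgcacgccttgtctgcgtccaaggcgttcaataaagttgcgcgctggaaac
Sdhd: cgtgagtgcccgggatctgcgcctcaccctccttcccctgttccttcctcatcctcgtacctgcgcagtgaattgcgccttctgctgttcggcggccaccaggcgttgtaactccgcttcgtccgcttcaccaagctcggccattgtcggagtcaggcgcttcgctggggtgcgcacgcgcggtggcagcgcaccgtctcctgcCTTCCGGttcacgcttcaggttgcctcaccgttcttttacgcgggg
Cox6b2: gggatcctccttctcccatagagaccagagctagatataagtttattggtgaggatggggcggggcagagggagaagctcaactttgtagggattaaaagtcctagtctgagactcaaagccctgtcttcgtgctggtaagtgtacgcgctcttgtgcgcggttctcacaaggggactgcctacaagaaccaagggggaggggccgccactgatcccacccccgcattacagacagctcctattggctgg
Ndufa6 holds the NRF1 motif once. In Ndufa11 the motif and its reverse complement overlap, so the capitals mark 2 matches of NRF1. Sdhd holds 1 ETS match, written as its reverse complement, and Cox6b2 none of the 3 motifs.

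In the capillary line, the summed level of the members was highest at E18.5 and lowest at P7 and P21. It was 26796 CPM in the female and 31368 CPM in the male at E18.5, 18317 and 27685 CPM at P1, 14806.5 and 17298 CPM at P7, and 14003 and 16587 CPM at P21. Both E18.5 mice were thus above both P7 mice and both P21 mice, and the P1 pair spanned the gap, the female near the later mice and the male above the E18.5 female. At E18.5 the genes took 2.91% of all reads on average and at P21 1.53%. Under hyperoxia at P7 the sum was 16789.6 CPM in the female and 22094 CPM in the male, against the P7 values above, and these pairs overlapped.

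**Figure D1:**
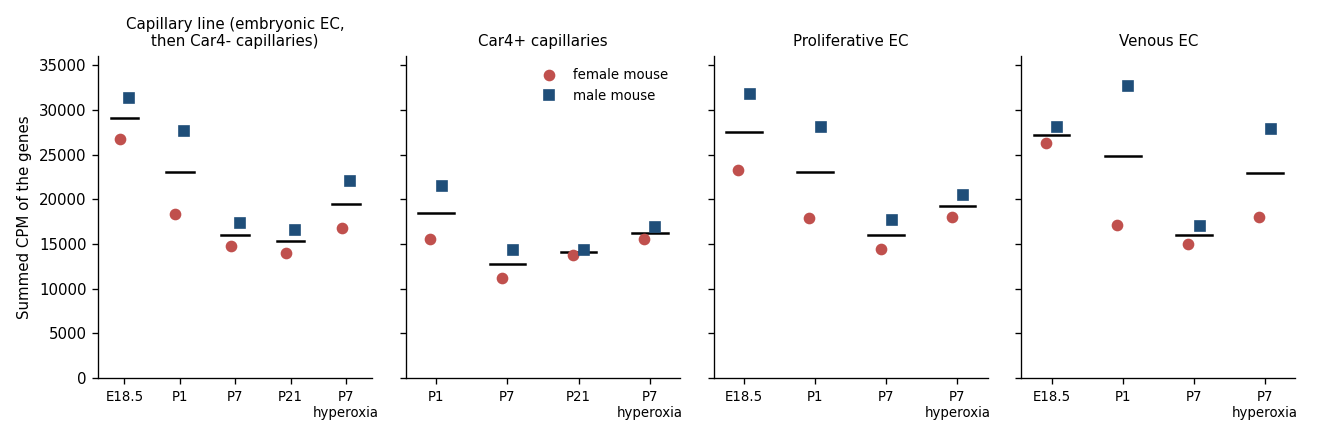
Summed CPM of the oxidative phosphorylation genes (vertical axis) by group (horizontal axis) in 4 endothelial classes; circles are female mice, squares male mice and the bar the mean of the 2 mice. The male lies above the female in each pair, and the P1 male is the highest or second highest of its panel, at 27685 CPM in the capillary line and 32675 CPM in venous EC.

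The complexes followed the sum to different degrees. Complex I subunits summed to 10736 and 12068 CPM (female and male) at E18.5 and to 5505 and 6448 CPM in Car4- capillaries at P7. Complex III went from 2318 and 2714 CPM to 1205 and 1289 CPM, and complex IV from 5309 and 5893 CPM to 2495 and 2931 CPM. Complex V, which holds the long Atp5a1 and Atp5b transcripts, was at 6757 and 8589 CPM at E18.5 and at 4346 and 5254 CPM at P7, and complex II at 991 and 1289 CPM and then 882 and 909.8 CPM. For each of the 5 complexes both E18.5 mice lay above both P7 mice.

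Read for read, Cox4i1, the main isoform of complex IV subunit 4, was the most abundant member at a mean of 1019.9 CPM over the 34 sums, followed by Atp5b (988 CPM) and Atp5a1 (566.9 CPM), the catalytic beta and the alpha subunit of the ATP synthase, Atp5j (536.9 CPM), its coupling factor 6, and Ndufa4 (534.3 CPM), a small subunit that was named for complex I and later placed in complex IV. Per transcript length, on the scale of CPM per kilobase, Cox4i1 led again (1369), followed by Ndufa4 (1182), Atp5j (789.6), Cox6c (739) and Cox6b1 (732), the latter both small complex IV subunits. Atp5b (515.8) and Atp5a1 (229.4) ranked 17th and 45th on that scale. Some core subunits were listed far lower: Uqcrc1, the core protein of complex III, was between 9.80 and 30.9 CPM in the 10 capillary line sums, and Ndufs3, a core subunit of complex I, between 0.852 and 6.36 CPM. Ndufs3 shares 35.8% of its 50-base stretches with another gene and had a read in 33.95% of cells. Uqcrc1 shares none and had a read in 67.1% of cells.

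Between E18.5 and P1 the summed level in the capillary line was lower after birth in both sexes, by a wider margin between the females than between the males, and no member passed the test. In the capillary line, edgeR's quasi-likelihood test with Benjamini-Hochberg adjustment called 0 of the members tested, with 0.494% of all genes called. The unadjusted p was under 0.05 for 3 members (2.94%, against 9.42% of all genes), and DESeq2 also called 0 (3.82% of all genes). Both P1 mice were below both E18.5 mice for 35 members (34.3%, against 18.6% of all genes) and above for 3 (2.94%, against 16%). The median log2 change over the members was -0.18, and 0.02 over all genes. Without the P1 male the members' median was -0.76 and without the P1 female 0.20. The CD31-gate cells of the female pair, the only ones from a shared run, gave a median log2 ratio of -0.54 with 10 members higher at P1, against 0.02 over all genes.

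By role, the median log2 change at this step was -0.17 for complex I, -0.47 for complex II, -0.19 for complex III, 0.03 for complex IV and -0.46 for complex V. Ndufs8, an iron-sulfur subunit of complex I, was at 493.6 and 386.3 CPM at E18.5 and at 171.7 and 235.5 CPM at P1 (log2 change -0.99, SE 0.40, edgeR adjusted p = 0.447). Ndufaf3, which helps assemble complex I, was at 96.5 and 107.2 CPM and then at 45.2 and 50.5 CPM (log2 change -0.99, SE 0.41, edgeR adjusted p = 0.467). Atp5mpl, a small membrane subunit of the ATP synthase, was at 310.4 and 304.1 CPM and then at 127.4 and 206.5 CPM. In each of these genes both P1 mice lay below both E18.5 mice. The other direction was seen for Ndufa11, an accessory subunit of complex I at chr17:56717767-56722141, which was at 227.03 and 285.1 CPM at E18.5 and at 402.7 and 397.4 CPM at P1 (log2 change 0.73, SE 0.41, edgeR adjusted p = 0.598). Ndufaf8, another assembly factor, was at 21.9 and 47.9 CPM and then at 67.7 and 116.7 CPM (log2 change 1.52, SE 0.57, edgeR adjusted p = 0.424). Both genes thus went against most of the members between these days, and both were back at lower levels by P7.

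**Figure D2:**
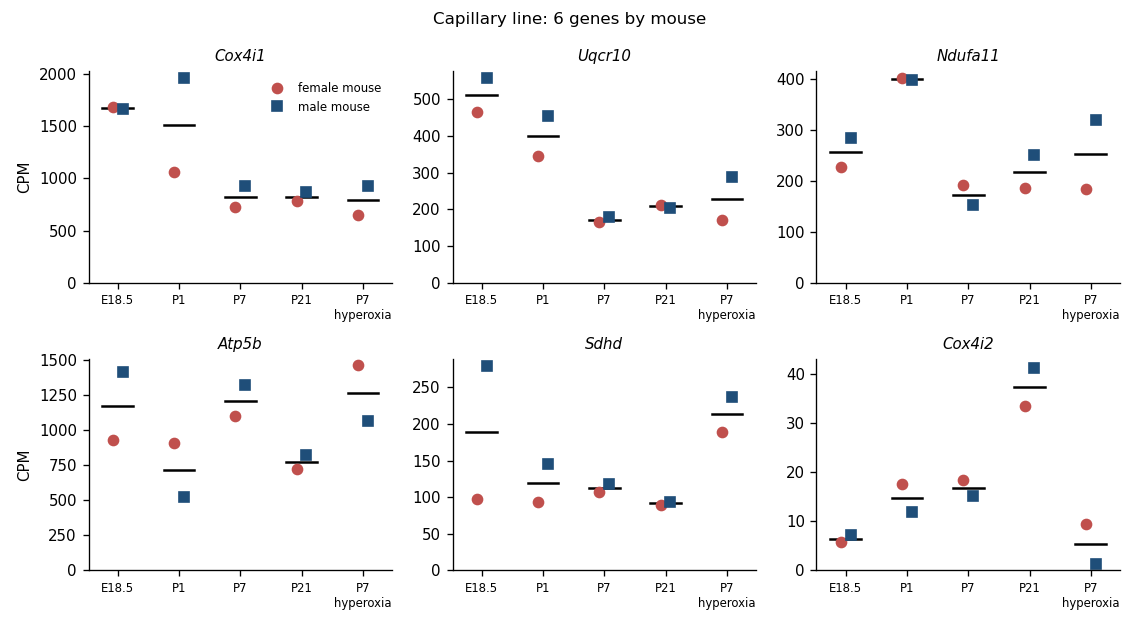
CPM (vertical axis, from 0) of 6 genes in the capillary line by group (horizontal axis); circles are female mice, squares male mice and the bar the mean of the 2 mice. Ndufa11 is highest at P1 in both mice (402.7 and 397.4 CPM), Cox4i1 and Uqcr10 are lower from P7 on, and Atp5b at P1 is lowest in the male (523.1 CPM).

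In proliferative EC, P1 against E18.5, edgeR called 0 of the members tested, with 0% of all genes called. An unadjusted p under 0.05 was found for 2 members (1.98%, against 7.42% of all genes), and DESeq2 called 1 (3.69% of all genes), Cox4i2. Its values were 11.99 and 0.80 CPM at E18.5 and 10.8 and 241.4 CPM at P1, so that call rested on the P1 male, whose 9 proliferative cells also held 244.9 CPM of Ndufa4l2. In those cells the summed level of 8 mural cell markers was 153.03 CPM and that of 4 fibroblast markers 305.5 CPM, against 15.7 and 0.675 CPM in the P1 female. The part of such cells in the result was not tested. Ndufc1, a small subunit of complex I, was at 337.9 and 362.9 CPM at E18.5 and at 105.9 and 188.8 CPM at P1 (log2 change -1.12, SE 0.49, edgeR adjusted p = 0.656). The median over the members was -0.12 and over all genes -0.16, it was -0.72 without the P1 male, 0.22 without the P1 female and 0.01 with each library's trend with transcript length removed, and 16 members (15.8%, against 27% of all genes) had both P1 mice below both E18.5 mice, and 3 (2.97%, against 9.72%) had both above. The female pair gave a median of -0.46, against -0.19 over all genes.

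In venous EC, P1 against E18.5, edgeR called 0 of the members tested, with 0.0162% of all genes called. The unadjusted p was under 0.05 for 3 members (2.97%, against 8.71%). DESeq2 called 1 (4.4% of all genes), Ndufaf6, a factor in complex I assembly, at 0.098 and 0 CPM at E18.5 and at 10.4 and 41.9 CPM at P1. Only 11 venous cells per mouse stand behind the E18.5 values. Ndufaf7, an assembly factor of complex I, was at 76.5 and 85.9 CPM at E18.5 and at 21.5 and 20.8 CPM at P1 (log2 change -2.07, SE 0.85, edgeR adjusted p = 0.555). Both P1 mice were below both E18.5 mice for 10 members (9.9%, against 9.83% of all genes) and above for 4 (3.96%, against 27.4%). The members' median was -0.15, against 0.18 over all genes, and it was -0.85 without the P1 male, 0.30 without the P1 female and -0.57 with the length trend removed. The female pair from the shared run gave a median log2 ratio of -0.59, against 0.36 over all genes.

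From P1 to P7, the short subunit genes were lower and a few long core genes higher in Car4- capillaries, and again no member passed the test. EdgeR called 0 of the members tested, with 0% of all genes called, while 29 members had an unadjusted p under 0.05 in the lower direction (28.4%, against 5.65% of all genes) and 2 in the higher one (1.96%, against 5.69%). Both P7 mice were below both P1 mice for 54 members (52.9%, against 19.1%), and above for 5 (4.9%, against 21.1%). The median log2 change was -0.84, and -0.04 over all genes. The members' median was -1.26 without the P1 female and -0.22 without the P1 male. The CD31-gate cells of the P1 and P7 mice of each sex came from different sequencing runs, so run and age cannot be told apart in them; 12 P7 male cells of other gates came from the run of the P1 male.

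Ndufa6, an accessory subunit of complex I at chr15:82350140-82354322, was at 276.2 and 496.2 CPM at P1 and at 131.4 and 167.2 CPM at P7 (log2 change -1.53, SE 0.43, edgeR adjusted p = 0.385; DESeq2 adjusted p = 0.0339). Uqcr10, a small subunit of complex III at chr11:4701973-4704342, was at 346.01 and 454.8 CPM and then at 164.7 and 179.8 CPM (log2 change -1.35, SE 0.40, edgeR adjusted p = 0.385; DESeq2 adjusted p = 0.0431). Ndufa11 was at 402.7 and 397.4 CPM and then at 192.1 and 151.9 CPM (log2 change -1.33, SE 0.40, edgeR adjusted p = 0.385). In these genes the mice of P1 and P7 did not overlap. Cox4i1 was at 1058 and 1959.8 CPM at P1 and at 723 and 928 CPM at P7 (log2 change -1.03, SE 0.44, edgeR adjusted p = 0.420). DESeq2 called 3 members (2.71% of all genes), Ndufa6, Uqcr10 and Cox6b2, the last on P1 levels of 0.097 and 1.05 CPM and none at P7.

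Among the core genes that were higher at P7, Sdha, the flavoprotein of complex II, was at 136.7 and 68.96 CPM at P1 and at 281.1 and 208.7 CPM at P7 (log2 change 1.19, SE 0.42, edgeR adjusted p = 0.385). Atp5a1 was at 506.8 and 251.96 CPM and then at 774 and 717 CPM (log2 change 0.92, SE 0.38, edgeR adjusted p = 0.408). Atp5b was at 912 and 523.1 CPM and then at 1100.0 and 1320.4 CPM (log2 change 0.68, SE 0.37, edgeR adjusted p = 0.486). Uqcrc2, a core protein of complex III, was at 156.3 and 107.1 CPM and then at 198.2 and 164.01 CPM (log2 change 0.38, SE 0.35, edgeR adjusted p = 0.711). Both P7 mice lay above both P1 mice in each of these, and in each the P1 male was the lowest of the 4.

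The change differed between bands of transcript length. The 69 members of at most 1000 bp had a median log2 change of -0.99 and the 27 members between 1000 and 2000 bp one of -0.28, whereas it was 0.37 for the 6 members between 2000 and 4000 bp. Over all genes of the same lengths the medians were -0.65, -0.04 and 0.18, and -0.16 over genes longer than 4000 bp, where no member was tested. Across the members tested the Pearson correlation of change with log2 length was 0.44, given as a description, since the points share libraries. With each library's trend with transcript length removed, an alternative chosen after seeing the data, the members' median was -0.19, and Ndufa6 was at -0.78 and Sdha at 0.97 on the log2 scale. What produced the differences between length bands was not tested.

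**Figure D3:**
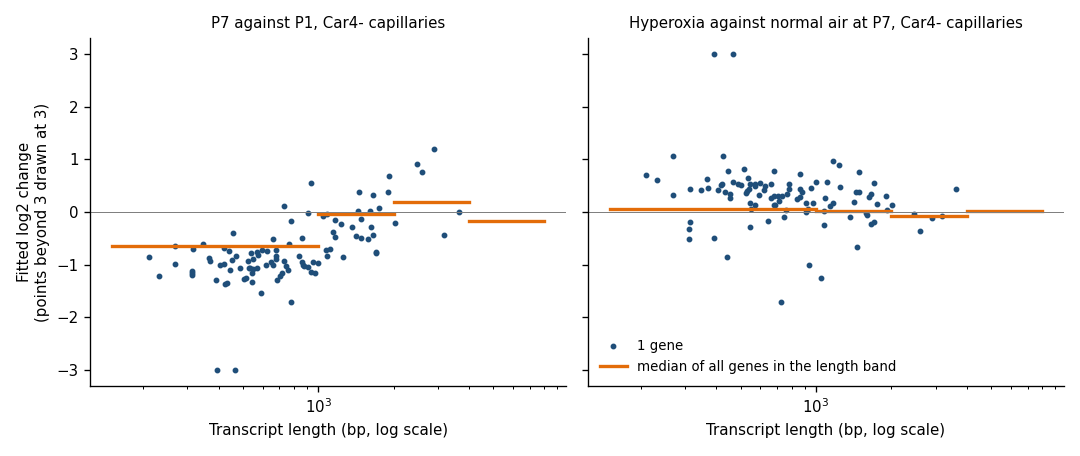
Fitted log2 change of each member (vertical axis, points beyond 3 drawn at 3) against its transcript length in bp (horizontal log axis) in Car4- capillaries, P7 against P1 on the left and hyperoxia against normal air on the right; bars are the medians of all genes tested in each length band. On the left the medians of all genes are -0.65 up to 1000 bp and 0.18 between 2000 and 4000 bp, and -0.16 above 4000 bp, the members' medians are -0.99 and 0.37 in the first and the last band that holds members, while on the right the bars lie between -0.07 and 0.06 and the members of at most 1000 bp have a median of 0.39.

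In the other classes, too, the members' median was below 0 for this week. In proliferative EC edgeR called 0 of the members tested, with 0% of all genes called. An unadjusted p under 0.05 was found for 13 members, all lower (12.9%, against 3.57% of all genes in that direction, and 6.25% in the higher one), and DESeq2 called 2 (4.52% of all genes), Ndufa13 and Uqcr10. Ndufa13, a membrane subunit of complex I also known as Grim19, was at 240.9 and 491.9 CPM at P1 and at 160.1 and 102.6 CPM at P7 (log2 change -1.67, SE 0.51, edgeR adjusted p = 0.495). The median was -0.82, against 0.08 over all genes, and 40 members (39.6%, against 12.2%) had both P7 mice below both P1 mice and 5 (4.95%, against 25.8%) had both above. Without the P1 female the members' median was -1.22. That fit leaves the P1 male's 9 cells as the only P1 sum, which is assumed to vary like the other groups. Without the P1 male the members' median was -0.11.

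In venous EC edgeR called 0 of the members tested, with 0% of all genes called. Unadjusted, p was under 0.05 for 5, all lower (4.95%, against 3.21% of all genes in either direction), and DESeq2 called 0 (0.698%). The median was -0.92 (all genes -0.08), it was -0.02 without the P1 male, and 37 members (36.6%, against 18%) had both P7 mice below both P1 mice and 5 (4.95%, against 17.3%) both above. In Car4+ capillaries edgeR called 0 of the members tested, with 0% of all genes called. The unadjusted p was under 0.05 for 7 (6.93%, against 6.28%), 6 of them lower (5.94%, against 2.79%) and 1 higher (0.99%, against 3.49%). DESeq2 called 3 (2.08% of all genes). Those 3 were Ndufaf5, at 4.82 and 0 CPM at P1 and 7.28 and 140.95 CPM at P7, Ndufa4l2, at 5.39 and 2.68 CPM and then 0 in both, and Cox6b2, at 0.029 CPM in 1 mouse and 0 in the others. The median was -0.47 (all genes 0.06) and 0.08 without the P1 male, and 39 members (38.6%, against 18.6%) had both P7 mice below both P1 mice and 4 (3.96%, against 12.9%) both above.

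Over the whole span from E18.5 to P7, given as values with no test, both P7 mice were below both E18.5 mice for 75 members in the capillary line (73.5%, against 22.3% of all genes) and above for 2 (1.96%, against 21.2%). The median log2 ratio was -0.92, and -0.01 over all genes. It was -0.78 in proliferative EC, where 65 members (64.4%, against 21.2%) were below, and -0.76 in venous EC, where 52 (51.5%, against 12%) were below. At P21 in the capillary line 80 members (78.4%, against 24%) were below E18.5. Cox4i1 was at 1687 and 1659 CPM at E18.5 and at 786 and 866 CPM at P21, and Atp5j at 922 and 906 CPM and then at 281.7 and 480 CPM. The mice of E18.5 did not overlap with those of P21 in either gene. The CD31-gate cells of the males of E18.5, P7 and P21 shared a run. Other genes with transcripts of at most 1000 bp also took more of the reads at E18.5 in the capillary line. Their share was 12% in the female and 13.8% in the male, against 8.79% and 10% at P7 and 10.1% and 11.2% at P21. The shares of all genes above are not matched for length, and the part of transcript length in this span was not tested.

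**Figure D4:**
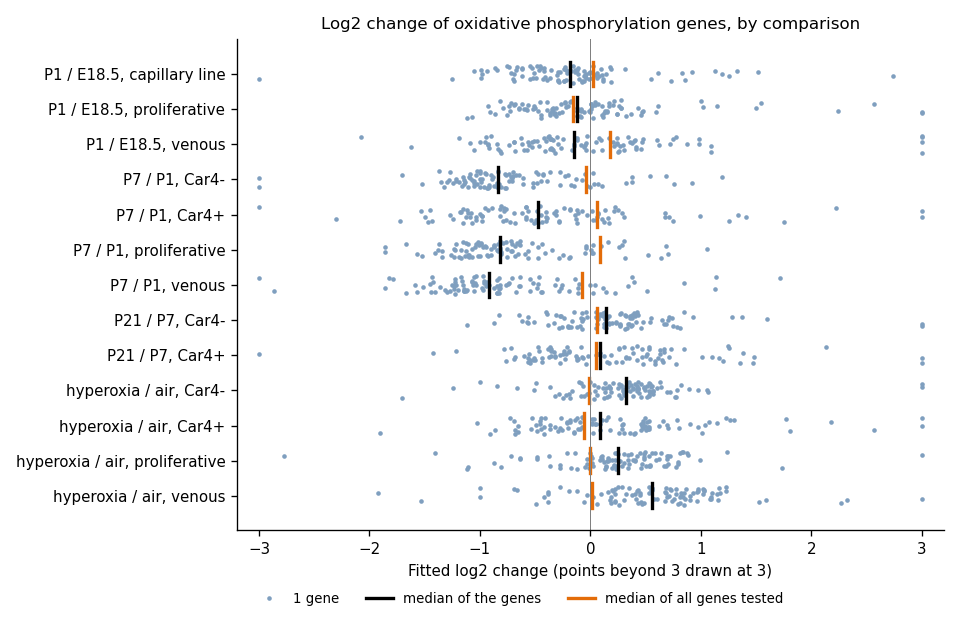
Fitted log2 change (horizontal axis, points beyond 3 drawn at 3) of each tested member in the 13 comparisons (vertical axis); the black bar is the median of the members and the orange bar that of all genes tested. For P7 against P1 the black bars lie between -0.92 and -0.47, and for hyperoxia against normal air between 0.08 and 0.56.

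From P7 to P21 no member passed the test, and the members' medians differed from those of all genes by less than 0.1 in both capillary classes, but not in the male pair from a shared run. In Car4- capillaries edgeR called 0 of the members tested, with 0.266% of all genes called. The unadjusted p was under 0.05 for 1 member (0.98%, against 10.5% of all genes), and DESeq2 called 1 (4.75%), Cox6b2. That gene was read in 8 and 2 Car4- cells at P21 and in 0 cells of either mouse at P7. The median was 0.14, and 0.06 over all genes, and both P21 mice were above both P7 mice for 10 members (9.8%, against 19.7%) and below for 18 (17.6%, against 21.5%). Ndufa2, a small accessory subunit of complex I, was at 124.5 and 144.03 CPM at P7 and at 181.1 and 241.3 CPM at P21 (log2 change 0.79, SE 0.41, edgeR adjusted p = 0.527). Ndufa10 was at 266.5 and 207.3 CPM and then at 134.5 and 112.7 CPM (log2 change -0.83, SE 0.39, edgeR adjusted p = 0.483), and Atp5a1 at 774 and 717 CPM and then at 432.8 and 458.4 CPM (log2 change -0.62, SE 0.38, edgeR adjusted p = 0.587). The pairs of mice did not overlap in these 3 genes. In Car4+ capillaries edgeR called 0 of the members tested, with 0.00814% of all genes called. Unadjusted, p was under 0.05 for 4 members (3.96%, against 5.24%), and DESeq2 called 2 (2.09%), Ndufa4l2 and Cox6b2. Both were at 0 CPM in both P7 mice. At P21 Ndufa4l2 was at 0.319 and 0 CPM, from 1 cell. Cox6b2 was at 6.40 and 2.95 CPM at P21, from 2 cells in each mouse. A single cell held 99.7% and 99.4% of those Cox6b2 reads. Both P21 mice were above for 26 members (25.7%, against 20.9%) and below for 5 (4.95%, against 12.8%). Sdhb, the iron-sulfur subunit of complex II, was at 243.1 and 137.7 CPM at P7 and at 454.4 and 551.5 CPM at P21 (log2 change 1.38, SE 0.51, edgeR adjusted p = 0.858). The median was 0.08 (all genes 0.05), 0.70 without the P7 male and -0.01 without the P21 male. In the CD31-gate cells of the males, which shared a run, 69 members were higher at P21 in Car4+ capillaries, with a median log2 ratio of 0.58 against -0.14 over all genes, and 59 in Car4- capillaries, with a median of 0.14 against -0.13. With CD31-gate cells alone the fitted median in Car4+ capillaries was 0.80.

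Under hyperoxia at P7 most members had higher levels than in normal air, and no member passed the main test. The summed levels overlapped between the pairs of mice in Car4- capillaries only. They were 15585.8 and 16874.6 CPM against 11196.7 and 14351.1 CPM in normal air in Car4+ capillaries. In proliferative EC they were 17980.7 and 20450.9 against 14400.8 and 17661.4 CPM, and in venous EC 17997.2 and 27836.5 against 15048.8 and 17018.3 CPM. In Car4- capillaries edgeR called 0 of the members tested, with 0.0136% of all genes called. The fitted change was above 0 for 79 members (77.5%, against 49.1% of all genes), and both hyperoxia mice were above both normal air mice for 24 (23.5%, against 18.1%) and below for 6 (5.88%, against 15.6%). The unadjusted p was under 0.05 for 2 members (1.96%, against 5.52%), Sdhd and Cox6b2, and DESeq2 called 1 (1.23% of all genes), Cox6b2. The members' median was 0.32 (all genes -0.01), 0.00 without the hyperoxia male and 0.20 with the length trend removed. Within the CD31-gate cells of the males, which shared a run, 76 members were higher, with a median log2 ratio of 0.41 against 0.00 over all genes. By role the medians were 0.30 for complex I, 0.02 for complex II, 0.34 for complex III, 0.44 for complex IV and 0.20 for complex V.

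Sdhd, a membrane anchor of complex II at chr9:50596357-50603812, was at 107.6 and 118.4 CPM in normal air and at 189.2 and 237.3 CPM under hyperoxia in Car4- capillaries (log2 change 0.89, SE 0.39, edgeR adjusted p = 0.887). In Car4+ capillaries it was at 88.3 and 30 CPM and then at 189.1 and 265.7 CPM (log2 change 1.77, SE 0.73, edgeR adjusted p = 0.731). In proliferative EC it was at 111.4 and 94.3 CPM and then at 132.6 and 177.7 CPM. In these 3 classes both hyperoxia mice lay above both normal air mice, and in venous EC, at 262.8 and 157.1 CPM and then 229.3 and 330.96 CPM, the pairs overlapped. The values of the other complex II genes overlapped between the groups in Car4- capillaries. Sdha was at 281.1 and 208.7 CPM and then at 302.7 and 163.7 CPM, and Sdhb at 334.4 and 435.8 CPM and then at 421.3 and 424.8 CPM. Atp5mpl was higher in both hyperoxia mice in 3 classes, at 88.9 and 112.8 CPM against 126.01 and 189.99 CPM in Car4- capillaries (log2 change 0.63, SE 0.45, edgeR adjusted p = 1), at 66.02 and 63.2 against 166.5 and 175.4 CPM in Car4+ capillaries, and at 85.9 and 133.3 against 202.6 and 201.2 CPM in proliferative EC.

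In Car4+ capillaries edgeR called 0 of the members tested, with 0% of all genes called. The unadjusted p was under 0.05 for 3 members (2.97%, against 6.16%), and DESeq2 called 2 (2.21%), Ndufa4l2 and Cox6b2, each on the hyperoxia male alone (32.8 and 19.1 CPM, with 0 in the other 3 mice). Both hyperoxia mice were above both normal air mice for 36 members (35.6%, against 19.8%) and below for 2 (1.98%, against 12.4%), with a median of 0.08 (all genes -0.06) that was 0.68 without the P7 male and -0.03 without the hyperoxia male. The CD31-gate cells of the male pair, from a shared run, gave a median log2 ratio of 0.49, against 0.00 over all genes. In proliferative EC edgeR called 0 of the members tested, with 0% of all genes called, the unadjusted p was under 0.05 for 1 member (0.99%, against 2.59%), and DESeq2 called 0 (0.717%). There 31 members (30.7%, against 16.6%) had both hyperoxia mice above and 2 (1.98%, against 16.4%) both below, and the median was 0.25 (all genes 0.00), 0.13 without the hyperoxia male, 0.52 without the P7 male and 0.15 with the length trend removed. The male pair from the shared run gave a median log2 ratio of 0.30, against -0.03 over all genes. In venous EC edgeR called 0 of the members tested, with 0% of all genes called, the unadjusted p was under 0.05 for 2 members (1.98%, against 2.69%), and DESeq2 called 0 (0.828%). There 35 members (34.7%, against 17.6%) had both hyperoxia mice above and 5 (4.95%, against 16.5%) both below, with a median of 0.56 (all genes 0.01) that was 0.00 without the hyperoxia male and 0.18 with the length trend removed. By length, all genes there had medians of 0.29 up to 1000 bp, 0.24 up to 2000 bp, -0.10 up to 4000 bp and -0.15 above, and the members 0.72, 0.40 and 0.07 in the first 3 bands. The venous cells of the male pair from the shared run gave a median log2 ratio of 0.77, against -0.10 over all genes. Ndufa3, a small subunit of complex I, was at 66.7 and 174.8 CPM in normal air and at 199.2 and 496.7 CPM under hyperoxia in venous EC (log2 change 1.59, SE 0.66, edgeR adjusted p = 1).

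Cox6b2 at chr7:4751792-4753094 was read in a larger share of cells in both hyperoxia mice than in any of the other 8 mice, a pattern noticed in the data. Its exons overlap no other gene and share no 50-base stretch with one. In the hyperoxia mice 58 cells of the female (21.3%, 95% Clopper-Pearson interval 16.6 to 26.7%) and 40 cells of the male (15.6%, 11.4 to 20.7%) had at least 1 read. In the 8 normal air mice the share was between 0% (0 cells, P7 female, interval up to 1.07%) and 4.25% (9 cells, P7 male). These intervals cover counting error only, as cells of 1 mouse are not replicates and reads without molecular identifiers are not independent molecules. With each cell thinned to 50000 reads the shares under hyperoxia were 19.5% and 14.8%, and at most 3.45% elsewhere. Within the run shared by the males, 40 CD31-gate cells under hyperoxia (15.7%) and 9 of 200 in normal air at P7 (4.5%) had a read.

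By class, Car4- capillaries had Cox6b2 reads in 0 cells of either mouse in normal air at P7 and in 25 and 11 cells (16.3% and 8.33%) under hyperoxia, at 22.96 and 13.05 CPM. The edgeR p was 0.0015 and the adjusted p 0.596, and the DESeq2 adjusted p was 2.28e-06. No fold is given, since reads here are not independent molecules and 1 Car4- cell of the P1 male alone gave 1.05 CPM. In venous EC it was read in 0 of 21 and 3 of 23 cells in normal air and in 13 of 23 and 16 of 30 cells under hyperoxia, at 0 and 2.61 CPM against 33.4 and 80.1 CPM (edgeR adjusted p = 1). In proliferative EC it was read in 0 of 55 and 3 of 34 cells and then in 12 of 36 and 7 of 30 cells, at 0 and 11.5 CPM against 42.6 and 96.4 CPM (edgeR adjusted p = 1). Both hyperoxia mice lay above both normal air mice in these 3 classes. In Car4+ capillaries only 1 of 37 cells of the hyperoxia male and 0 of 19 of the female had a read, and in arterial EC I none of 15 and 9 cells did (95% Clopper-Pearson limits of 21.8% and 33.6% for cells with a read). EdgeR's test of a difference in the hyperoxia effect between classes, given further on, called no member. The ubiquitous isoform Cox6b1 was at 284.01 and 349.3 CPM in normal air and at 332.3 and 530.2 CPM under hyperoxia in Car4- capillaries, overlapping pairs.

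Mural cell markers were also higher in the hyperoxia Car4- sums, 8 markers together at 70.1 and 66.7 CPM against 18.3 and 35.9 CPM in normal air, with Kcnj8 at 0 in all of these 4 sums and Notch3 and Abcc9 also at 0 in the P7 male. Among Car4- cells, 2.04% of the 49 with a Cox6b2 read had reads of 2 or more mural markers, against 5.66% of the 1414 without. In venous EC the markers summed to 355.5 and 296.9 CPM in normal air at P7 and to 415.9 and 382.2 CPM under hyperoxia, and the median mural level was 238.6 CPM in the 35 cells with a Cox6b2 read and 21.5 CPM in those without. The shares with 2 or more markers were 14.3% and 15.5% there. In proliferative EC the markers summed to 12.6 and 315.9 CPM and to 102.9 and 79.7 CPM, and 23.1% of the 26 cells with a Cox6b2 read and 8.24% of those without had 2 or more. The shares and medians by Cox6b2 read pool cells of all mice. Cells with a Cox6b2 read also had more genes read than the others, with medians of 3936 and 3011 in Car4- capillaries. The medians were 4835 and 4479 in venous EC, and 4492.5 and 3950.5 in proliferative EC. The part of mural cells in the Cox6b2 levels was not tested. Under hyperoxia the cell with the most Cox6b2 reads held 22.6% and 24% of a mouse's reads in Car4- capillaries, 33.3% and 17.5% in venous EC, and 29.5% and 47.7% in proliferative EC.

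**Figure D5:**
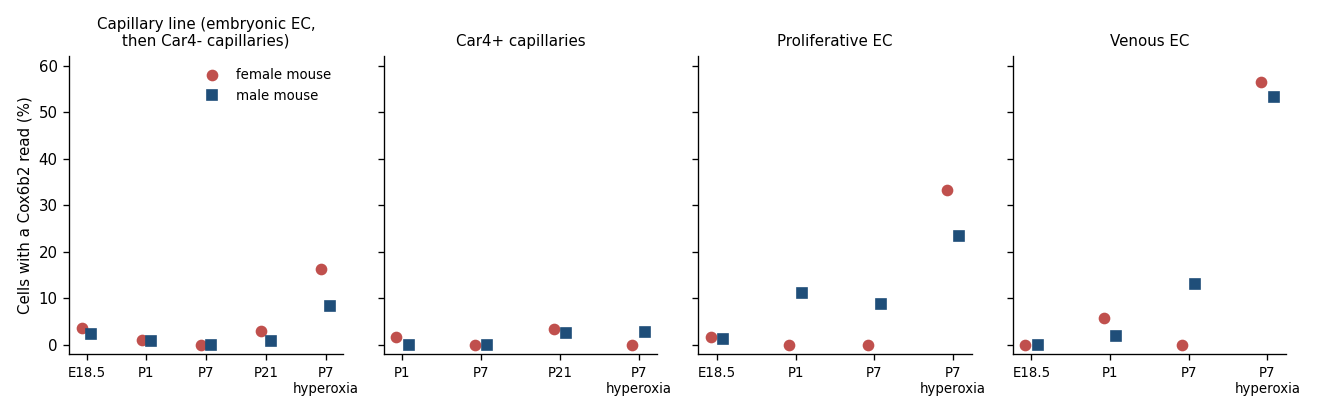
Percent of cells with at least 1 Cox6b2 read (vertical axis) by group (horizontal axis) in 4 classes; circles are female mice and squares male mice. Under hyperoxia the shares are 16.3% and 8.33% in Car4- capillaries and 56.5% and 53.3% in venous EC, above every other mouse in those classes.

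The other tissue and oxygen isoforms were minor. Over the sums, per transcript length, Cox4i2 made a median of 1.03% of Cox4i1 and Cox4i2 together (at most 13.4%), Ndufa4l2 0.50% of its pair with Ndufa4 (at most 13.8%) and Cox6b2 0.375% of its pair with Cox6b1 (at most 23.95%). The muscle isoforms Cox6a2, Cox7a1 and Cox8b and the testis isoform Cox7b2 had a median of 0%, and Cox7b2 had 2 reads in the whole table. Cox4i2 at chr2:152754173-152765037 was at 5.69 and 7.18 CPM in the capillary line at E18.5, 17.5 and 11.9 CPM at P1, 18.4 and 15.1 CPM at P7, 33.5 and 41.1 CPM at P21, and 9.40 and 1.21 CPM under hyperoxia. The P21 mice were the highest and the hyperoxia mice lay below both P7 mice (log2 change -1.71, SE 0.84, edgeR adjusted p = 0.887). The mix of sort gates differed in the same order. Over all classes, each P21 mouse had a larger share of cells from the gate labelled mesench than either P7 mouse. Each P7 mouse in turn had a larger share than either hyperoxia mouse. Cox4i2 levels in CD31-gate cells alone are not given here. In Car4+ capillaries both hyperoxia mice lay above both P7 mice, at 29.9 and 8.76 CPM against 1.01 and 4.01 CPM. Those hyperoxia values came from 4 of 19 and 1 of 37 cells. The pairs overlapped in proliferative EC (66 and 17 CPM against 10.1 and 76.1 CPM) and in venous EC. Reads of Cox4i2 were found in 31 and 38 Car4- cells (11.4% and 14.2%) at P21. Ndufa4l2, a hypoxia inducible relative of Ndufa4, was at 11.4 and 20.1 CPM at P7 and at 19.8 and 52.9 CPM at P21, overlapping pairs.

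Mural markers, genes of pericytes, were counted in the cells with Cox4i2 or Ndufa4l2 reads, since pericytes are known to express both isoforms. Of the Car4- cells with a Cox4i2 read 17.4% had reads of 2 or more of the 8 mural markers, against 4.47% of the others, and for Ndufa4l2 the shares were 22.4% of 85 cells and 4.50%. In proliferative EC the shares were 44.4% of the 36 cells with Cox4i2 and 5.65% of the others. In venous EC they were 30.8% of the 13 cells with Cox4i2 and 14.2% of the others, but 0% of the 12 cells with Ndufa4l2 and 16.2% of the others. Both genes were read in 28 Car4- cells, 23.1% of those with Cox4i2 and 32.9% of those with Ndufa4l2. These shares pool cells of all mice. Cells with a Cox4i2 read also had more genes read than the others, with medians of 3246 and 3007.5 in Car4- capillaries. The medians were 5420.5 and 3889.5 in proliferative EC, and 5672 and 4416.5 in venous EC. The part of that difference in the shares, and of pericyte RNA in the levels of these isoforms, was not tested. In bulk sums like these, fewer cells with a gene and fewer reads per cell cannot be told apart from the CPM alone.

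Compared within the same mouse, the levels differed little between subtypes, which were drawn from expression in these cells and are therefore given with no test. Car4+ capillaries had lower levels than the capillary line by a median of -0.28 on the log2 scale over 93 members at 5 CPM or more in 8 mice, close to the -0.31 of all genes. They were lower in every mouse for 6 of the 93 members, a smaller share than the 9.52% of all genes. They were higher in every mouse for 0 (2.93% of all genes). The 6 were the complex I subunits Ndufa8 (mean log2 difference -0.94, SD 0.66, n = 8), Ndufv1 (-0.79, SD 0.46) and Ndufc2 (-0.64, SD 0.33), the ATP synthase genes Atp5g3 (-0.51, SD 0.33) and Atp5a1 (-0.49, SD 0.34), and Cox7a2l (-1.01, SD 0.91), a factor of supercomplex assembly. Proliferative EC differed by -0.04 over 94 members (all genes -0.14). Ndufa2 alone was higher in every mouse (0.23, SD 0.11, n = 8), a smaller share than the 5.7% of all genes. There 0 members were lower (4.74% of all genes). Venous EC differed by 0.04 over 95 members (all genes -0.19). Higher in each mouse were 2 of them, Ndufa8 (0.64, SD 0.43, n = 9) and Cox7b (0.39, SD 0.25, n = 9). That is a smaller share than the 2.69% of all genes, and 0 members were lower (5.19% of all genes).

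The difference of an effect between classes was tested with an interaction term in edgeR, with the mouse as a term. For the birth step, proliferative EC against the capillary line, edgeR called 0 of the members tested, with 0.028% of all genes called, 1 at an unadjusted p under 0.05 (4.47% of all genes) and DESeq2 0. For venous EC against the capillary line edgeR called 0 of the members tested, with 0% of all genes called, 3 at an unadjusted p under 0.05 (5.15% of all genes) and DESeq2 1, Ndufaf6 (4.51% of all genes). In this last fit the median interaction of the members was 0.08 and that of all genes 0.66. For the hyperoxia effect against Car4- capillaries, edgeR called 0 of the members tested in Car4+ capillaries, proliferative EC and venous EC alike, with 0% of all genes called in each. The counts at an unadjusted p under 0.05 were 2, 2 and 1 (3.31%, 3.37% and 3.61% of all genes), and DESeq2 called 1, 0 and 0, the 1 being Ndufa4l2 (1.63% of all genes called in that fit).

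Neighbouring mitochondrial lists were read in the same fits. From E18.5 to P1 in the capillary line, the 82 mitochondrial ribosomal protein genes had a median log2 change of -0.18 (29 higher and 53 lower in the fit, 0 called), the 22 genes of pyruvate oxidation and the citric acid cycle -0.53 (0 called), 13 regulators of mitochondrial biogenesis such as Ppargc1a -0.56 (0 called) and 40 assembly factors and electron carriers -0.12 (0 called). The 23 genes of hypoxia response and glycolysis had a median of -1.20, against 0.02 over all genes. Of these 23 genes edgeR called 1 higher, Epas1, and 2 lower, Egln3 and Ankrd37, with 0.494% of all genes called. From P1 to P7 in Car4- capillaries none of the 5 lists had a call by edgeR. The mitochondrial ribosomal genes had a median of -0.56, the citric acid cycle list 0.61 and all genes -0.04. Of the 82 ribosomal genes, 14 had an unadjusted p under 0.05 in the lower direction (5.65% of all genes). The lists are not matched for transcript length. In this comparison all genes of at most 1000 bp had a median of -0.65 and those between 2000 and 4000 bp 0.18. The part of length in the values of the lists was not tested. Under hyperoxia the medians in Car4- capillaries were 0.14 for the mitochondrial ribosome, 0.03 for the citric acid cycle, 0.07 for the regulators, 0.11 for assembly and carriers and -0.09 for hypoxia and glycolysis, with no call in any of the 5.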

How the data were processed

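Reads of 2931 plate-sorted cells from 10 mice were aligned with STAR 2.5.2b and counted per gene with HTSeq 0.10, per the submitters' processing notes, and the authors deposited raw counts per gene and cell. Strand, annotation and the treatment of reads with several matches are not given in the sources used here. Cell subtypes, mouse, gate and run come from the labels. Here the counts were summed per mouse and class and tested with edgeR 4.0.16 in R 4.3.3 (quasi-likelihood F test, TMM, filterByExpr, all groups of a class in 1 fit, Benjamini-Hochberg over all genes tested, threshold 0.05); p-values measure only the spread between these mouse names. SE is the log2 change divided by the square root of F. DESeq2 1.42.0, limma 3.58.1 on the mean CPM over cells (pseudocount 1), RLE scaling, no filter, CD31-gate cells, thinning to 50000 reads, a sex block and leaving out each mouse were alternatives, and removal of a length trend was added after seeing the data. The fit was also run on simulated counts of Car4- capillaries with known changes, and how many of them it recovered is not given here.

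The rule gave 105 members, with a median transcript length of 704 bp; 102 had enough reads for the test in the capillary line and 101 in the other classes. Members and lists were chosen with earlier results of these data known. Named in each comparison were members called and up to 5 per direction with the largest log2 change. The latter came from those whose mice did not overlap (at least 50 CPM). Also named were fixed isoform families and core subunits, and the 5 most abundant. Ndufs3, Ndufa8 and Ndufaf6 were named after their values were seen. Lengths and positions came from GENCODE M21.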

Additional observations from a re-analysis of the deposited data

How the results depend on the processing

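With 2 mice a group, single mice moved many values. The count of members called by edgeR stayed at 0 under most alternatives. It was above 0 with DESeq2, at 1 for P1 against E18.5 in proliferative and in venous EC, at 3, 3 and 2 for P7 against P1 in Car4-, Car4+ and proliferative cells, at 1 and 2 for P21 against P7 in Car4- and Car4+ capillaries, at 1 and 2 for hyperoxia in Car4- and Car4+ capillaries, and at 1 in the interactions of birth with venous EC and of hyperoxia with Car4+ capillaries. Without a filter it was 2 for birth in proliferative EC, and with only the 2 groups in the fit 1 for hyperoxia in Car4- capillaries (Cox6b2, edgeR adjusted p = 0.0448). Leaving out each mouse gave counts of 0 to 2 for birth in proliferative EC (2 without the P1 female), 0 to 1 in venous EC (1 without the E18.5 male), 0 to 9 for P7 against P1 in proliferative EC (9 without the P1 female) and 0 to 3 for the interaction of birth with venous EC (3 without the E18.5 male, 1 without the E18.5 female).

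The members' median log2 change ranged, leaving out each mouse, from -0.76 to 0.20, -0.72 to 0.22 and -0.85 to 0.30 for birth (capillary line, proliferative, venous), from -1.26 to -0.22, -1.00 to 0.08, -1.22 to -0.11 and -1.44 to -0.02 for P7 against P1 (Car4-, Car4+, proliferative, venous), from -0.07 to 0.37 and -0.01 to 0.70 for P21 against P7 (Car4-, Car4+), and from 0.00 to 0.56, -0.03 to 0.68, 0.13 to 0.52 and 0.00 to 1.03 for hyperoxia. For P7 against P1 it was -0.48 and -0.47 with limma in Car4- and proliferative cells, and -0.19, -0.24, -0.36 and -0.15 with the length trend removed in Car4-, Car4+, proliferative and venous cells. With that trend removed it was -0.27, 0.01 and -0.57 for birth (capillary line, proliferative, venous), 0.03 for P21 against P7 in Car4- capillaries, and 0.20, 0.14, 0.15 and 0.18 for hyperoxia (Car4-, Car4+, proliferative, venous). It was -0.89 on CD31-gate cells in Car4+ capillaries. For P21 against P7 in Car4+ capillaries it was 0.02 with DESeq2 and with RLE, 0.17 without a filter, 0.80 on CD31-gate cells, 0.19 on thinned cells, 0.12 with limma, 0.20 with the sex block and 0.13 with the length trend removed. For hyperoxia in Car4+ capillaries it was 0.52 on CD31-gate cells and 0.40 on thinned cells and with limma. The cause was not tested.

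With sex as a replicate block edgeR again called 0 members in each comparison, and the median for birth in the capillary line was -0.22. The same sex in 2 groups marks no shared animal. Of the subtype counts, members lower in every mouse in Car4+ capillaries were 10 with the mean over cells. In proliferative EC, members higher were 0 on thinned cells and members lower 2 on CD31-gate cells, 3 on thinned cells and 1 with the mean over cells. In venous EC, members higher were 1 on CD31-gate cells and members lower 1 on thinned cells. A gene read in few cells of a mouse, as Cox6b2 in normal air, has counts that depend on those cells. Thinning to 50000 reads gave Cox6b2 shares of 19.5% and 14.8% under hyperoxia, against 21.3% and 15.6%.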
